A study of Mus musculus with 8 samples.

Results

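Fos, Fosb, Jun, Junb, Jund, Egr1, Nr4a1, Ier2, Dusp1 and Dusp2 are 10 immediate early genes of the AP-1 and Egr group, and they were taken by symbol from the 52550 genes measured in each library. Their RNA was followed in B cell precursors sorted from the bone marrow of C57BL/6J mice, either wild type (WT) or with the lactoferrin gene Ltf knocked out (Lf-/-). Sorted pro-B cells (B220+CD43+IgM-) and cells of the earlier pre-pro-B stage were collected from untreated animals, whose age is not in the labels and which the methods describe as littermates matched for age. The study asked how the loss of lactoferrin alters gene expression at these stages. The 7 libraries were 2 of WT pre-pro-B, 2 of Lf-/- pre-pro-B, 1 of WT pro-B and 2 of Lf-/- pro-B cells, and another WT pro-B sample in the labels was not analysed here.

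Immediate early genes are transcribed within minutes of a stimulus, without new protein synthesis, when ERK, JNK, p38 or cAMP signalling activates transcription factors already bound at their promoters. Fos and Jun family proteins pair to form AP-1, Egr1 and Nr4a1 are DNA-binding factors of the zinc finger and nuclear receptor families, and Dusp1 and Dusp2 are nuclear phosphatases that switch MAP kinases off again. In developing lymphocytes these genes respond to antigen receptor and cytokine signals.

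Levels are given as FPKM, fragments scaled for the length of the transcript and for the total in the library, so that genes can be compared within a library. Between libraries the scale also depends on what else was sequenced, and results are therefore given under other scalings too. Values of a group of 2 libraries are given in the order replicate 1, replicate 2. The step between neighbouring low values corresponded to about 11000000 and 12000000 fragments for WT pre-pro-B, 14000000 for WT pro-B, 11000000 for the first Lf-/- pre-pro-B library, and 11000000 and 16000000 for Lf-/- pro-B. For Lf-/- pre-pro-B replicate 2 no step was readable, so its depth is unknown. All 10 genes were above 0 in every library. Fos ranked between the 98.7 and 99.6 percentiles of the genes above 0, Jund between 98.3 and 99.7, and Fosb, the least abundant, between 67.3 and 82.5. For the 3 genes with a single annotated transcript (Jun, Jund and Ier2), the lowest value in the 6 libraries of known depth rested on about 1900 fragments (Jun in WT pre-pro-B replicate 2), so counting error was small beside the spread between libraries.

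The labels were checked against Ltf, which was at 2143 and 2731 (pre-pro-B) and 2650 FPKM (pro-B) in WT mice, and 88.2 and 149 (pre-pro-B) and 168 and 96.0 FPKM (pro-B) in Lf-/- mice. No Lf-/- library reached any WT library. Lf-/- pre-pro-B replicate 2 stood apart, with 12172 genes above 0 against 19477 to 20250 in the other libraries, and the main counts that rest on it are given with and without it. The methods give 3 mice for each group whereas the labels list 2 samples, and the labels do not say that replicates came from separate animals, so p-values measure only the spread between these samples, which may be technical.

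Markers of the sorted cells and of other bone marrow cells were read beside the 10 genes. An early B lineage list of 16 genes, led by Cd79a, summed to 545 and 485 FPKM for WT pre-pro-B, 202 for WT pro-B, 2924 and 2252 for Lf-/- pre-pro-B, and 2551 and 1448 for Lf-/- pro-B libraries. A neutrophil list of 18 genes, led by S100a8 and with no gene at 0, took 41.3% and 42.0% (pre-pro-B) and 55.6% (pro-B) of the summed FPKM in WT mice, and 39.5% and 27.7% (pre-pro-B) and 37.3% and 42.1% (pro-B) in Lf-/- mice. The early B sum was thus higher in each Lf-/- library than in any WT library, and neutrophil transcripts were abundant in all 7. In bulk RNA, fewer cells of a type and less RNA per cell cannot be told apart, and the part of either list in the results below was not tested.

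Fos encodes the AP-1 subunit that must pair with a Jun protein to bind DNA. The gene (ENSMUSG00000021250) lies on chromosome 12 of GRCm38, 85473890 to 85477273. It was at 279 and 921 FPKM for WT pre-pro-B, 175 for WT pro-B, 349 and 914 for Lf-/- pre-pro-B, and 661 and 867 for Lf-/- pro-B libraries. In pre-pro-B cells the genotypes overlapped fully, with a low and a high library in each, whereas both Lf-/- pro-B libraries were above the WT pro-B library. Fosb (ENSMUSG00000003545, chromosome 7, 19302696 to 19310051) was at 5.54 and 5.29 (pre-pro-B) and 4.03 FPKM (pro-B) in WT mice, and 6.28 and 9.27 (pre-pro-B) and 9.37 and 5.71 FPKM (pro-B) in Lf-/- mice. Its genotypes did not overlap, although the highest WT value (5.54) and the lowest Lf-/- value (5.71) were close. Fos exceeded Fosb between 43.5-fold and 174-fold within a library.

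The bases upstream of Fos are shown because Fos, Dusp1 and Ier2 varied together between libraries and because this stretch holds the sequence TGACG, the core of the cAMP response element. They run from 250 to 1 bases before the RefSeq start (GRCm38.p6, chr12:85473640-85473889, plus strand), outside any annotated exon, and capitals mark the TGACG matches, which begin 129 and 66 bases before the start. Whether TGACG has a part in how these genes varied was not tested.
Fos promoter: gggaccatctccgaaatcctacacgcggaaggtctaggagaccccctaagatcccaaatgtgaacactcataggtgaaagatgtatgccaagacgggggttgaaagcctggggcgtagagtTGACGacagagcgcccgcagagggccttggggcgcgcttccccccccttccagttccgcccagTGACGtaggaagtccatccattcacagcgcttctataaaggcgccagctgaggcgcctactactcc

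Jun is the partner that can bind DNA alone as well as with Fos, and the gene, a single exon (ENSMUSG00000052684, chromosome 4, 95049034 to 95052222), was at 85.3 and 49.4 FPKM for WT pre-pro-B, 55.2 for WT pro-B, 118 and 48.3 for Lf-/- pre-pro-B, and 122 and 104 for Lf-/- pro-B libraries. Only Lf-/- pre-pro-B replicate 2 kept the genotypes from separating, and it had the lowest value of all. Junb, a weaker activator that often opposes Jun (ENSMUSG00000052837, chromosome 8, 84974484 to 84978718), was at 83.1 and 50.6 (pre-pro-B) and 69.1 FPKM (pro-B) in WT mice, and 157 and 86.1 (pre-pro-B) and 311 and 229 FPKM (pro-B) in Lf-/- mice. Both pro-B libraries of Lf-/- mice stood clearly above all others, and the lowest Lf-/- value (86.1) lay just over the highest WT value (83.1).

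Jund is the Jun gene usually transcribed without a stimulus, and it is encoded by a single exon (ENSMUSG00000071076, chromosome 8, 70698949 to 70700616). It was at 182 and 220 FPKM for WT pre-pro-B, 135 for WT pro-B, 1132 and 498 for Lf-/- pre-pro-B, and 708 and 366 for Lf-/- pro-B libraries. All 4 Lf-/- libraries were above the 3 WT libraries, and the mean of the former was 3.78 times that of the latter. Group means ran from WT pro-B (135) through WT pre-pro-B (201 ± 26.4, SD, n = 2) and Lf-/- pro-B (537 ± 241.5, SD, n = 2) to Lf-/- pre-pro-B (815 ± 449, SD, n = 2), and the last pair overlapped. About 3200 fragments stood behind the lowest of these values and about 21000 behind the highest.

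Egr1, a zinc finger factor and a classic target of ERK signalling (ENSMUSG00000038418, chromosome 18), was at 29.1 and 36.3 (pre-pro-B) and 25.8 FPKM (pro-B) in WT mice, and 44.0 and 43.7 (pre-pro-B) and 56.1 and 51.9 FPKM (pro-B) in Lf-/- mice. It had the narrowest spread of the 10 genes within each Lf-/- stage apart from Ier2 in pro-B, and its genotypes did not overlap. Nr4a1, an orphan nuclear receptor induced by antigen receptor signals (ENSMUSG00000023034, chromosome 15, 101254269 to 101274795), was at 26.9 and 14.2 FPKM for WT pre-pro-B, 20.0 for WT pro-B, 34.9 and 35.6 for Lf-/- pre-pro-B, and 78.6 and 29.9 for Lf-/- pro-B libraries. The Lf-/- libraries were again all above the WT libraries, but the pro-B replicates lay far apart.

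Ier2, a short nuclear protein (ENSMUSG00000053560, chromosome 8, 84661331 to 84662852), was at 179 and 285 (pre-pro-B) and 144 FPKM (pro-B) in WT mice, and 173 and 308 (pre-pro-B) and 256 and 257 FPKM (pro-B) in Lf-/- mice. The genotypes overlapped in pre-pro-B cells, and only the WT pro-B library lay below all others.

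Dusp1 inactivates p38, JNK and ERK (ENSMUSG00000024190, chromosome 17, 26505590 to 26562128). Its level was 122 and 245 FPKM for WT pre-pro-B, 61.3 for WT pro-B, 105 and 358 for Lf-/- pre-pro-B, and 377 and 452 for Lf-/- pro-B libraries. As for Fos, the pre-pro-B genotypes overlapped, and the WT pro-B library was the lowest of all. Dusp2, an inducible nuclear phosphatase of haematopoietic cells (ENSMUSG00000027368, chromosome 2, 127336159 to 127338376), was at 34.9 and 36.1 (pre-pro-B) and 23.1 FPKM (pro-B) in WT mice, and 169 and 181 (pre-pro-B) and 149 and 80.1 FPKM (pro-B) in Lf-/- mice. Even its lowest Lf-/- library (80.1) was far above the highest WT library (36.1), and the Lf-/- mean was 4.62 times the WT mean, the largest ratio of the 10 genes. Its group means ran from WT pro-B (23.1) through WT pre-pro-B (35.5 ± 0.807, SD, n = 2) and Lf-/- pro-B (115 ± 48.9, SD, n = 2) to Lf-/- pre-pro-B (175 ± 8.26, SD, n = 2).

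Upstream sequences of both phosphatases are shown for contrast, since the genes differed in how they varied. The Dusp1 stretch runs from 250 to 48 bases before the RefSeq start (GRCm38.p6, chr17:26508520-26508722, minus strand, 203 bases, outside any annotated exon) and the Dusp2 stretch from 250 to 1 (chr2:127335909-127336158, plus strand, 250 bases, outside any annotated exon). Capitals mark TGACG, which begins 191 bases before the Dusp1 start, and TGACGTCA, which begins 143 bases before it, reads the same on both strands and so contains TGACG on each. No TGACG lay in the Dusp2 window, and no match says only that these letters are not in this window. Fosb, Junb and Nr4a1 held TGACG as well. Over the 7 libraries, Pearson's r with Fos was 0.932 for Dusp1, 0.585 for Fosb, 0.222 for Junb and 0.162 for Nr4a1. It was 0.492 for Dusp2, and the promoter of Ier2 was not searched. Any part of these sequences in how the genes varied was not tested.
Dusp1 promoter: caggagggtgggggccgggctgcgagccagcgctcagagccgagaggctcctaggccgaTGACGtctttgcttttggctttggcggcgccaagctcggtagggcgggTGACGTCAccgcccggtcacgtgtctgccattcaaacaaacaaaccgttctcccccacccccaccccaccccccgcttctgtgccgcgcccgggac
Dusp2 promoter: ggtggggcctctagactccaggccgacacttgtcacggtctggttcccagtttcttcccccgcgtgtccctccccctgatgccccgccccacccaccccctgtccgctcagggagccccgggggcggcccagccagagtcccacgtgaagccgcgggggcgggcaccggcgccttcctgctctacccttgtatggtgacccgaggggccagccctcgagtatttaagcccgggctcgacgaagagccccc

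RefSeq promoters of 250 bases were taken by symbol for 8 of the 10 genes (Ier2 was not matched and Egr1 was not searched). In these and in all 32851 promoters of the set, 8 motifs were searched on both strands. TGACG was found in 5 of 8 (Fos, Fosb, Junb, Dusp1 and Nr4a1) against 17.8% of all promoters, and TGACGTCA, which includes it, in 1 (Dusp1) against 1.55%. Nr4a1 held TGACG at 4 positions, 233, 213, 69 and 40 bases before its start. The AP-1 motif TGANTCA was in 0 of 8 against 6.75% of all promoters, the Egr motif GCGTGGGCG in 0 against 0.536%, and the CArG box of serum response factor in 0 against 1.47%. Of the general promoter motifs, GGGCGG was in 6 against 32.7%, CCAAT in 2 against 33.8%, and TATAAA in 1 (Fos, 33 bases before the start) against 12.4%. A match describes letters in the window and does not show that a factor was bound. No match, as for the CArG box, says nothing about sequence beyond these 250 bases or about Egr1 and Ier2. The RefSeq start used for Jund lay 1210 bases from the nearest annotated transcript start, so its window is not the promoter of the transcript measured.

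**Figure D1:**
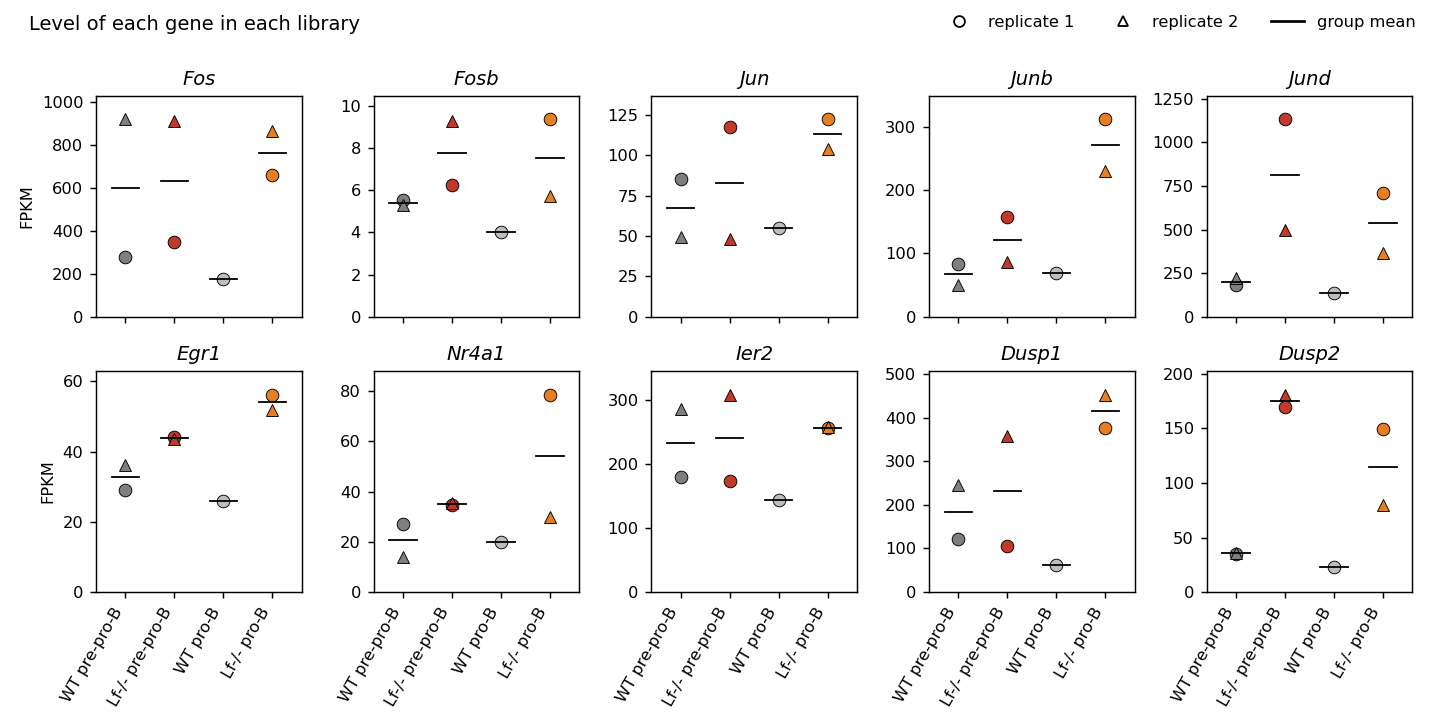
Level of each gene (FPKM, vertical axis from 0) in each library, by genotype and stage, with circles for replicate 1, triangles for replicate 2 and a line at the group mean. Dusp2 lay between 23.1 and 36.1 in the 3 WT libraries and between 80.1 and 181 in the 4 Lf-/- libraries, whereas Fos, Ier2 and Dusp1 overlapped in pre-pro-B cells.

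Over all 7 libraries, the 4 Lf-/- values were above the 3 WT values for 6 of the 10 genes (Fosb, Junb, Jund, Egr1, Nr4a1 and Dusp2), as they were for 9.87% of the 10793 genes tested. Without Lf-/- pre-pro-B replicate 2, Jun joined them, giving 7 of 10 against 16.4% of genes. After median-ratio scaling, which makes the typical gene equal between libraries, Jund and Dusp2 alone remained without overlap, 2 of 10 against 5.57%, and when they were set to an equal sum outside the neutrophil list 5 of 10 did so, all of the 6 but Junb, against 6.68% of genes. Within pre-pro-B cells alone the same 6 did not overlap, against 15.5% of the genes tested there.

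Genotypes were compared within pre-pro-B cells on log2(FPKM + 1), a scale that understates differences of low genes, using limma with Benjamini-Hochberg adjustment over 9720 genes, those at 1 FPKM or more in 2 or more of the 4 libraries. Dusp2 and Jund differed most. Dusp2 was higher in Lf-/- cells by 2.27 (SE 0.39), with an unadjusted p of 0.00134, which ranked it 11 among 9720 genes, and Jund was higher by 1.90 (SE 0.54, unadjusted p = 0.0132). Junb (0.83, SE 0.51), Nr4a1 (0.82, SE 0.48), Fosb (0.43, SE 0.45) and Egr1 (0.42, SE 0.40) were higher by about their standard error or somewhat more. Differences of Jun (0.21), Dusp1 (0.17), Fos (0.16) and Ier2 (0.03) were within the spread between replicates.

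By the adjusted test 0 of the 10 genes passed in pre-pro-B cells, against 0% of all genes, with adjusted p = 0.941 for both Dusp2 and Jund in limma with Benjamini-Hochberg adjustment. With the replicate number entered as a block, 1 of the 10 passed (Dusp2, Benjamini-Hochberg adjusted p = 0.0465 in limma), against 0.669% of all genes. Without that block, at an unadjusted p under 0.05, 2 of 10 passed, both higher in Lf-/-, against 2.92% of all genes (2% higher), or 284 genes. Their median difference was 0.43 against 0.035 for all genes, and 0.30 against -0.072 with median-ratio scaling. A count of 0 after adjustment does not show that genes did not differ. An exact permutation test of 2 libraries against 2 cannot give a two-sided p below 0.333. Without Lf-/- pre-pro-B replicate 2, the differences were 2.22 for Dusp2, 2.50 for Jund and 1.26 for Junb, 3 of 10 passed unadjusted against 8.07% of all genes and 0 genes passed after adjustment in limma, while Fos (-0.54), Dusp1 (-0.70) and Ier2 (-0.38) were lower in Lf-/- cells. As deposited all 10 were higher against 52% of all genes, and median-ratio scaling put 1 (Ier2, -0.11) lower against 55.1%. Once Lf-/- pre-pro-B replicate 1 is left out, the library that stood apart is the only Lf-/- library and the WT pair supplies all of the spread. There 36.5% of all genes (3338) passed in limma with Benjamini-Hochberg adjustment, so the calls of 2 of the 10, Dusp2 (2.32, adjusted p = 0.0155) and Jund (1.31, adjusted p = 0.0375), do not set them apart from other genes.

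In pro-B cells every one of the 10 genes was higher in both Lf-/- libraries than in the WT library, as were 75.3% of all genes tested. The difference of the means stayed above 0 for all 10 with median-ratio scaling, against 51.7% of genes, and with an equal sum outside the neutrophil list. With median-ratio scaling, however, Lf-/- pro-B replicate 2 was below the WT library for Fosb (5.02 against 5.52) and Nr4a1 (26.3 against 27.5). The difference of the means reached 2-fold, 1 on the log2 scale, for 8 of 10 (all but Fosb and Ier2) against 12.4% of genes. Dusp1 differed most, by 2.73 (SE 0.78), followed by Dusp2 at 2.20 (SE 0.50), Fos at 2.10 (SE 0.84), Junb at 1.94 (SE 0.56) and Jund at 1.91 (SE 0.65). This order changed with the replicate number as a block, where Dusp2 (2.32) exceeded Dusp1 (2.23). It also changed without Lf-/- pro-B replicate 2 (2.64 for Dusp2 against 2.60 for Dusp1). Nr4a1 (1.24), Egr1 (1.03) and Jun (1.02) passed 2-fold narrowly. With 1 WT library there is no replicate check of its value, and it was the lowest of the 7 for 7 of the genes (Fos, Fosb, Jund, Egr1, Ier2, Dusp1 and Dusp2). The share of all genes lowest in this library is not given here, but 80.4% of all genes were lower in it than in WT pre-pro-B cells. With median-ratio scaling it was the lowest only for Fos, Dusp1 and Dusp2 among the 10.

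For these standard errors all 7 libraries entered a fit of group means in which the WT pro-B library is assumed to vary like the others. By that fit 0 of the 10 genes passed the adjusted limit in pro-B cells against 0% of all genes, with Benjamini-Hochberg adjusted p = 0.789 for Dusp2 and 0.822 for the other genes in limma. Unadjusted, 6 of 10 (Fos, Junb, Jund, Egr1, Dusp1 and Dusp2) were under 0.05, all higher in Lf-/-, against 4.33% of all genes (4.18% higher), or 467 genes. Without Lf-/- pro-B replicate 1, 2 (Dusp1 and Dusp2) were under 0.05 against 1.33% of genes, and 5 reached 2-fold against 12.1%. The count was 6 without Lf-/- pre-pro-B replicate 1 or 2, but 21.9% or 21.8% of all genes were under 0.05. Their median difference was 1.57 against 0.48 for all genes. Median-ratio scaling moved these to 0.95 and 0.017, left 5 genes at 2-fold (Fos, Junb, Jund, Dusp1 and Dusp2) against 4.17% of genes, and left 2 (Dusp1 and Dusp2) under an unadjusted p of 0.05. The share of all genes under that limit with this scaling is not given here, so the 2 cannot be set against it. Set to an equal sum outside the neutrophil list, whose share was highest in the WT pro-B library, the medians were 1.32 and 0.31, and the same 5 genes reached 2-fold against 7.98% of genes.

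A fit of genotype with stage as a term used all 7 libraries, 3 WT and 4 Lf-/-, and tested 10793 genes that reached 1 FPKM in 2 or more of them. The labels repeat the same sample names at both stages, so libraries of different stages may share animals. This fit treated them as independent, and its p-values would not allow for such sharing. Dusp2 rose in Lf-/- cells by 2.24 (SE 0.30), with adjusted p = 0.0381 in limma with Benjamini-Hochberg adjustment, and it was higher in 4 of 4 Lf-/- libraries than in any WT library. It was the only one of the 10 genes to pass, 1 of 10 against 0.185% of all genes (20 genes, 19 higher and 1 lower), and it ranked 13 by p. Ltf itself fell, with a difference of -4.38 and adjusted p = 0.00206 in the same limma fit. Jund was higher by 1.90 (SE 0.38), with Benjamini-Hochberg adjusted p = 0.147 in limma, Junb by 1.27 (SE 0.38), Dusp1 by 1.20 (SE 0.62), Nr4a1 by 0.98 (SE 0.40), Fos by 0.93 (SE 0.58) and Egr1 by 0.67 (SE 0.28). Fosb (0.55), Jun (0.54) and Ier2 (0.35) differed least. Without the WT pro-B library the values were 0.17 for Dusp1, 0.16 for Fos, 0.83 for Junb, 0.42 for Egr1, 0.21 for Jun and 0.03 for Ier2, and other libraries left out gave up to 1.89 for Dusp1 and 1.56 for Fos.

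All 10 differences were above 0 in this fit against 66.8% of genes, 10 of 10 with median-ratio scaling against 45.7%. At an unadjusted p under 0.05, 5 of 10 (Junb, Jund, Egr1, Dusp2 and Nr4a1) passed in this fit, all higher, against 7.17% of all genes (6.48% higher), or 774 genes. Without WT pro-B 2 passed (Dusp2 and Jund) against 4.93% of genes, without Lf-/- pro-B replicate 1 3 against 4.13%, and without Lf-/- pre-pro-B replicate 1 8 against 28.7%. The median difference was 0.96 against 0.21 for all genes, and 0.63 against -0.046 with median-ratio scaling, where 3 of 10 passed unadjusted. The share of all genes passing unadjusted with that scaling is not given here, so the 3 cannot be set against it. With that scaling the Dusp2 difference of 1.91 had a Benjamini-Hochberg adjusted p of 0.122 in limma. The call was also lost with an equal sum outside the neutrophil list (adjusted p = 0.0504), with a pseudocount of 0.1 (0.0578) and without a filter on low genes (0.271). Leaving out a library ended it without WT pre-pro-B replicate 1 (0.150) or 2 (0.160), WT pro-B (0.481), or Lf-/- pro-B replicate 1 (0.153) or 2 (0.0865), while the difference itself stayed between 2.10 and 2.39. Over all alternatives its adjusted p ran from 0.00667 to 0.481. Without Lf-/- pre-pro-B replicate 2, 123 genes passed, Dusp2 at 2.21 (adjusted p = 0.0191) and Jund at 2.20 (adjusted p = 0.0218), both in limma with Benjamini-Hochberg adjustment, and over all alternatives the adjusted p of Jund ran from 0.0218 to 0.792.

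**Figure D2:**
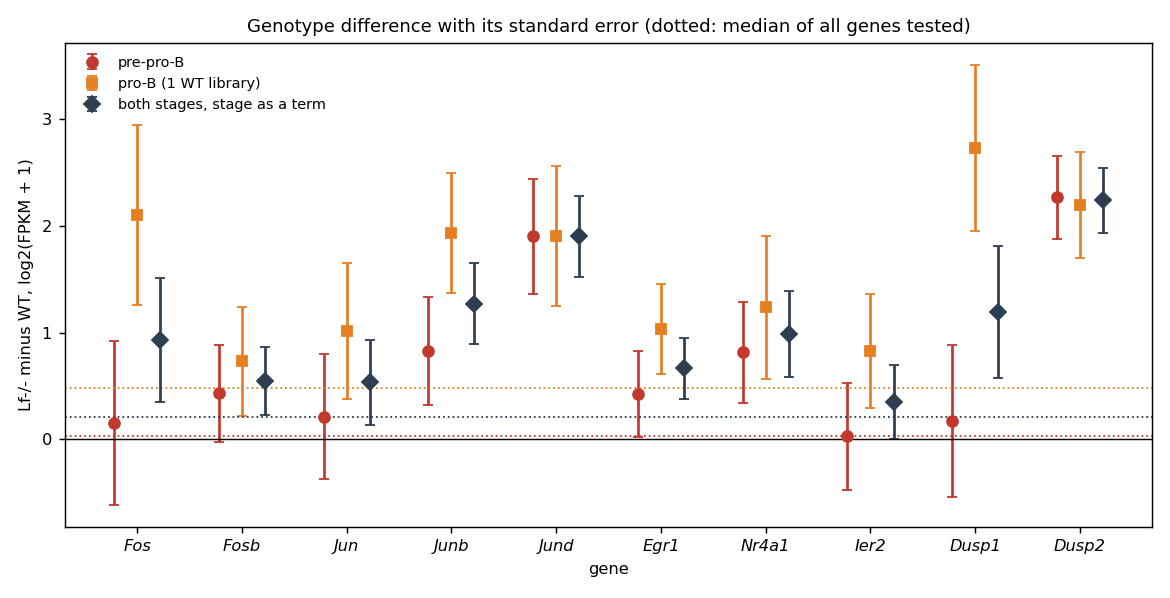
Genotype difference of each gene (Lf-/- minus WT, log2(FPKM + 1), vertical axis) with its standard error as a bar, in pre-pro-B cells (circles), in pro-B cells (squares) and with stage as a term (diamonds). Dotted lines mark the median of all genes tested, 0.035, 0.48 and 0.21, and Dusp2 lay between 2.20 and 2.27 in all 3, while Dusp1 was at 0.17 at the pre-pro-B stage against 2.73 at the pro-B stage.

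Stages were then compared within each genotype. In Lf-/- mice Junb was higher in pro-B than in pre-pro-B cells by 1.20 (SE 0.46, unadjusted p = 0.0347) and Dusp1 by 1.08 (SE 0.64), whereas Dusp2 (-0.67, SE 0.41) and Jund (-0.56, SE 0.53) were lower. Of the 10 genes 7 were higher and 3 lower, against 61% and 39% of all genes, and with median-ratio scaling 7 were higher against 56.5%. By the adjusted test 0 passed, against 0% of all genes, and unadjusted 1 (Junb) passed against 5.73% of genes (5% higher), or 618 genes, with a Benjamini-Hochberg adjusted p of 0.798 in limma. Without Lf-/- pre-pro-B replicate 2, which leaves 1 library in that group, the Junb difference was 0.77 and its unadjusted call was lost. Without Lf-/- pre-pro-B replicate 1, the library that stood apart is the only one of its group and the other groups supply the spread. Then 28.6% of all genes (3027) passed in limma with Benjamini-Hochberg adjustment, so the call of 1 of the 10 (Junb, 1.62, adjusted p = 0.0398) does not set it apart. In WT mice 8 of 10 were lower in the pro-B library, against 80.4% of all genes, most of all Fos (-1.53, SE 0.84) and Dusp1 (-1.48, SE 0.78), and 0 passed in limma either adjusted, against 0% of genes, or unadjusted, against 0.75% (81 genes). The median difference was 0.36 against 0.15 for all genes in Lf-/- mice and -0.46 against -0.28 in WT mice, where with median-ratio scaling it was -0.077 against 0.013 and 6 of 10 were lower against 48.4% of genes.

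Whether the genotype difference itself depended on stage was tested as an interaction in the same 7 libraries. Dusp1 had the largest value, 2.56 (SE 1.01, unadjusted p = 0.0383), followed by Fos at 1.95 (SE 1.09), while the values of Dusp2 (-0.07, SE 0.64) and Jund (0.003, SE 0.84) were near 0. Values were above 0 for 9 of 10 against 77.1% of genes, and for 6 of 10 with median-ratio scaling against 53.7%. In limma 0 of 10 passed after adjustment, against 0% of all genes, and 1 (Dusp1) passed unadjusted, against 2.74% of genes (2.53% higher), or 296 genes.

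Replicates of one group differed by as much as several of these comparisons. Between the WT pre-pro-B libraries Fos was 3.30 times higher and Dusp1 2.01 times higher in replicate 2, and between the Lf-/- pre-pro-B libraries Fos was 2.62 times, Dusp1 3.39 times and Ier2 1.77 times higher in replicate 2. Jun ran the other way, with replicate 2 at 0.579 and 0.410 of replicate 1 in these groups, as did Junb at 0.610 and 0.549. So the Fos to Jun ratio was 3.27 and 18.6 for WT pre-pro-B, 3.18 for WT pro-B, 2.96 and 18.9 for Lf-/- pre-pro-B, and 5.40 and 8.34 for Lf-/- pro-B libraries. It differed more between replicates of pre-pro-B cells than between genotypes.

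Replicate 2 of Dusp2 differed from replicate 1 by 0.05 on the log2 scale between the WT pre-pro-B libraries, 0.10 between the Lf-/- pre-pro-B libraries and -0.89 at the Lf-/- pro-B stage. Egr1 differed by 0.31, -0.01 and -0.11, and Jund by 0.27, -1.18 and -0.95. The median absolute difference of the 10 genes was 0.69 in WT pre-pro-B against 0.26 for all genes, 0.84 against 0.88 in Lf-/- pre-pro-B, where the library that stood apart enters, and 0.42 against 0.32 in Lf-/- pro-B. In WT pre-pro-B 3 of 10 (Fos, Dusp1 and Nr4a1) lay beyond the 90th percentile of all genes (0.79), in Lf-/- pro-B cells 3 (Jund, Dusp2 and Nr4a1) lay beyond it (0.86), and in Lf-/- pre-pro-B 0 did so (2.02).

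**Figure D3:**
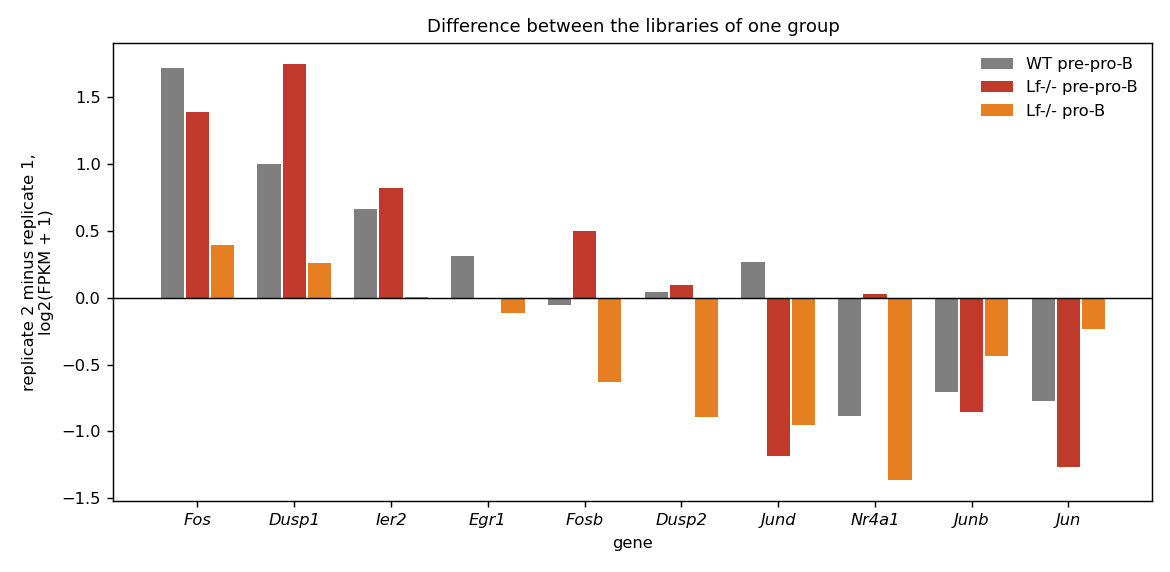
Difference between replicate 2 and replicate 1 of each gene (log2(FPKM + 1), vertical axis) within the 3 groups that have 2 libraries. Bars of Fos, Dusp1 and Ier2 point up in all 3 groups (Fos 1.72, 1.39 and 0.39) and those of Jun and Junb point down (Jun -0.78, -1.27 and -0.23).

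Across the 7 libraries, log2 levels of Fos and Ier2 moved together, with Pearson's r of 0.977 and Spearman's rho of 0.929, an r of 0.980 without Lf-/- pre-pro-B replicate 2 and of 0.961 without the 2 libraries farthest from the median of the gene named first. Jund and Dusp2 had r of 0.940 and rho of 0.893 (r of 0.984 and 0.946 in the same reductions), Ier2 and Dusp1 r of 0.922 and rho of 0.714 (0.922 and 0.761), Fos and Dusp1 r of 0.932 and rho of 0.643 (0.923 and 0.828), and Jun and Junb r of 0.867 and rho of 0.75 (0.907 and 0.852). Fos and Jun had r of -0.0736 and rho of -0.357 (r of 0.158 and -0.652 in the same reductions). These describe 7 libraries that share groups and scaling, and they were picked from all pairs of the 10 genes after their values were seen.

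The make-up of the group differed between libraries as well. The 10 genes summed to 1027 and 1863 (pre-pro-B) and 713 FPKM (pro-B) in WT mice, and 2289 and 2481 (pre-pro-B) and 2729 and 2443 FPKM (pro-B) in Lf-/- mice, so every Lf-/- library was above every WT library, but with median-ratio scaling Lf-/- pre-pro-B replicate 2 (1879) was below WT pre-pro-B replicate 2 (1982). The Jund to Jun ratio was 2.14 and 4.44 for WT pre-pro-B, 2.45 for WT pro-B, 9.61 and 10.3 for Lf-/- pre-pro-B, and 5.78 and 3.52 for Lf-/- pro-B libraries. The Dusp2 to Dusp1 ratio was 0.287 and 0.147 for WT pre-pro-B, 0.377 for WT pro-B, 1.60 and 0.505 for Lf-/- pre-pro-B, and 0.396 and 0.177 for Lf-/- pro-B libraries. Dusp2 thus exceeded Dusp1 only in Lf-/- pre-pro-B replicate 1.

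Related genes were read from lists outside the 10. Among other AP-1 and bZIP partners, such as Atf3 and Batf, 0 of 10 tested at the pre-pro-B stage and 0 of 14 at the pro-B stage passed unadjusted in limma, and their medians were 0.26 and 0.42 against 0.035 and 0.48 for all genes, the later one turning to -0.11 with median-ratio scaling and the earlier one to -0.16 without Lf-/- pre-pro-B replicate 2. Atf3 was at 38.8 and 33.4 (pre-pro-B) and 15.5 FPKM (pro-B) in WT mice, and 23.0 and 138 (pre-pro-B) and 71.6 and 26.4 FPKM (pro-B) in Lf-/- mice, which overlapped. Other Egr and Nr4a genes with the Nab corepressors were low, with 1 of 7 tested in pre-pro-B cells and 4 of 7 in pro-B cells, and 0 passed unadjusted in limma. Nab1 lay between 1.83 and 3.40 FPKM and Nr4a3 reached 3.56 FPKM in Lf-/- pre-pro-B replicate 2 and at most 2.05 in the other libraries, while Egr2, at most 0.763 FPKM in WT libraries, reached 3.07 and 1.37 FPKM for Lf-/- pro-B (pro-B difference 1.20, unadjusted p = 0.0660). Kinases of the ERK, JNK and p38 cascades with SRF and ETS factors, 17 of 23 tested, gave 0 passed unadjusted at either stage and medians of 0.11 and 0.55, or -0.02 and 0.05 with median-ratio scaling, and the earlier one was -0.16 without Lf-/- pre-pro-B replicate 2.

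Other MAP kinase phosphatases gave 2 of 4 tested passing unadjusted in pre-pro-B cells, both higher, against 2% of all genes, and 0 of 5 in pro-B cells against 4.18%. They were Dusp5, which acts on ERK in the nucleus (1.98, unadjusted p = 0.00492), and Dusp6, which acts on ERK in the cytoplasm (1.30, unadjusted p = 0.0290), and without Lf-/- pre-pro-B replicate 2 they were at 1.72 and 0.97 (unadjusted p = 0.00457 and 0.0226). Dusp5 was at 14.7 and 10.6 FPKM for WT pre-pro-B, 8.83 for WT pro-B, 43.3 and 63.2 for Lf-/- pre-pro-B, and 42.1 and 14.4 for Lf-/- pro-B libraries, so that only the last value overlapped the WT range.

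Other immediate early response genes were mostly higher in Lf-/- cells, 25 of 27 tested in pre-pro-B against 52% of all genes and 28 of 29 in pro-B against 87%, or 24 against 44.9% and 22 against 51.7% with median-ratio scaling. In pre-pro-B cells 4 of 27 tested, in pro-B cells 8 of 29 and with stage as a term 13 of 29 were higher at an unadjusted p under 0.05 against 2%, 4.18% and 6.48% of all genes, 0 were lower, and 0 passed after adjustment in limma. Chosen after the data were seen, a fit without Lf-/- pre-pro-B replicate 2 gave 9 of 27, 14 of 29 and 13 of 29 against 3.98%, 21.3% and 8.82%, with 3 (Cd69, Plk2 and Btg2) passing after adjustment in limma with stage as a term. With every library kept, the medians of this list were 0.78, 0.97 and 0.74 against 0.035, 0.48 and 0.21 for all genes, and 0.65, 0.42 and 0.48 with median-ratio scaling. Without Lf-/- pre-pro-B replicate 2 they were 0.49, 0.97 and 0.78 against -0.10, 0.49 and 0.20. For 12 of the 29 every Lf-/- value lay above every WT value, against 9.87% of genes, and 13 reached 2-fold in pro-B cells, against 12.4%. Cd69, a surface marker of recent lymphocyte activation, was at 17.6 and 18.8 (pre-pro-B) and 6.36 FPKM (pro-B) in WT mice, and 59.7 and 72.9 (pre-pro-B) and 90.7 and 36.0 FPKM (pro-B) in Lf-/- mice. It did not overlap between genotypes, and its difference with stage as a term was 2.27 with a Benjamini-Hochberg adjusted p of 0.107 in limma. The kinase gene Plk2 was at 1.94 and 1.90 FPKM for WT pre-pro-B, 1.04 for WT pro-B, 8.71 and 14.6 for Lf-/- pre-pro-B, and 9.73 and 3.37 for Lf-/- pro-B libraries, also without overlap. Zfp36, whose product promotes mRNA decay, had its low and high pre-pro-B libraries in the same places as Fos, at 54.3 and 121 (pre-pro-B) and 31.2 FPKM (pro-B) in WT mice, and 70.3 and 147 (pre-pro-B) and 140 and 123 FPKM (pro-B) in Lf-/- mice.

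Cell type lists were set beside the 10 genes by the same count. Early B lineage genes were higher at an unadjusted p under 0.05 for 8 of 15 tested in pre-pro-B, 11 of 15 in pro-B and 13 of 15 with stage as a term, against 2%, 4.18% and 6.48% of all genes, where 3 passed after adjustment in limma, and their medians were 1.28, 2.78 and 1.87. Mature B cell genes gave 5 of 7 in each, 3 passing after adjustment with stage as a term, with medians of 1.72, 2.37 and 1.84. The early B counts were 8, 12 and 12 of 14 without Lf-/- pre-pro-B replicate 2, against 3.98%, 21.3% and 8.82%, and their medians 1.63, 2.86 and 2.06, with 7 passing after adjustment in limma with stage as a term. Neutrophil genes were lower for 1 of 18, 2 of 18 and 5 of 18, against 0.926%, 0.148% and 0.695% of all genes, with 1 (Ltf) passing after adjustment and medians of -0.38, -0.66 and -0.47. This list includes Ltf, the gene knocked out, whose fall enters these counts. In pro-B cells 3 of the 18 were 2-fold higher, against 12.4% of all genes, and 5 were 2-fold lower. The share of all genes 2-fold lower is not given here. Without Lf-/- pre-pro-B replicate 2 the medians were -0.56, -0.66 and -0.33. Cd79a, a B cell receptor chain, was at 261 and 203 FPKM for WT pre-pro-B, 86.1 for WT pro-B, 1518 and 993 for Lf-/- pre-pro-B, and 1105 and 731 for Lf-/- pro-B libraries, the same side of WT as Dusp2 in every library. Their part in the differences of the 10 genes was not tested.

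Other bone marrow cells were read in the same way. Plasmacytoid dendritic cell genes, led by Ly6d, summed to 487 and 298 (pre-pro-B) and 193 FPKM (pro-B) in WT mice, and 2323 and 3035 (pre-pro-B) and 1097 and 1137 FPKM (pro-B) in Lf-/- mice, with 1 of 7 tested passing after adjustment with stage as a term in limma. Ly6d made up most of these sums, and the other genes of the list summed to 39.6 and 39.2 FPKM for WT pre-pro-B, 58.9 for WT pro-B, 35.4 and 162 for Lf-/- pre-pro-B, and 161 and 238 for Lf-/- pro-B. Monocyte and macrophage genes, led by Ly6c2, summed to between 711 and 1936 FPKM with medians of -0.27 at the earlier stage (-0.78 without Lf-/- pre-pro-B replicate 2, with 3 of 10 lower unadjusted against 4.1% of genes) and 0.48 at the later stage (0.013 with median-ratio scaling). T and NK cell genes, led by Nkg7, summed to between 424 and 1306 FPKM, and 7 of 12 were at 0 in Lf-/- pre-pro-B replicate 2. Without Nkg7 the list summed to 29.6 and 23.0 FPKM for WT pre-pro-B, 32.6 for WT pro-B, 12.2 and 99.9 for Lf-/- pre-pro-B, and 139 and 139 for Lf-/- pro-B. In pro-B cells 6 of 10 tested were higher at an unadjusted p under 0.05 against 4.18% of all genes, as many as of the 10 immediate early genes, with a median of 1.63 (1.05 with median-ratio scaling), whereas in pre-pro-B cells 2 of 5 were lower against 0.926%, with a median of -1.24 (-0.97 without Lf-/- pre-pro-B replicate 2), and 0 passed after adjustment in limma. Erythroid genes, led by Hba-a1, took 1.93% to 15.2% of the summed FPKM, with the highest share in Lf-/- pre-pro-B replicate 2. Of the monocyte, T and NK, and erythroid lists 0 genes passed after adjustment with stage as a term in limma, against 0.185% of all genes. Against 7.17% unadjusted, 2 monocyte genes (1 higher and 1 lower), 1 T and NK gene (lower) and 0 erythroid genes passed, and without Lf-/- pre-pro-B replicate 2 the T and NK count was 1 higher and 0 lower.

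**Figure D4:**
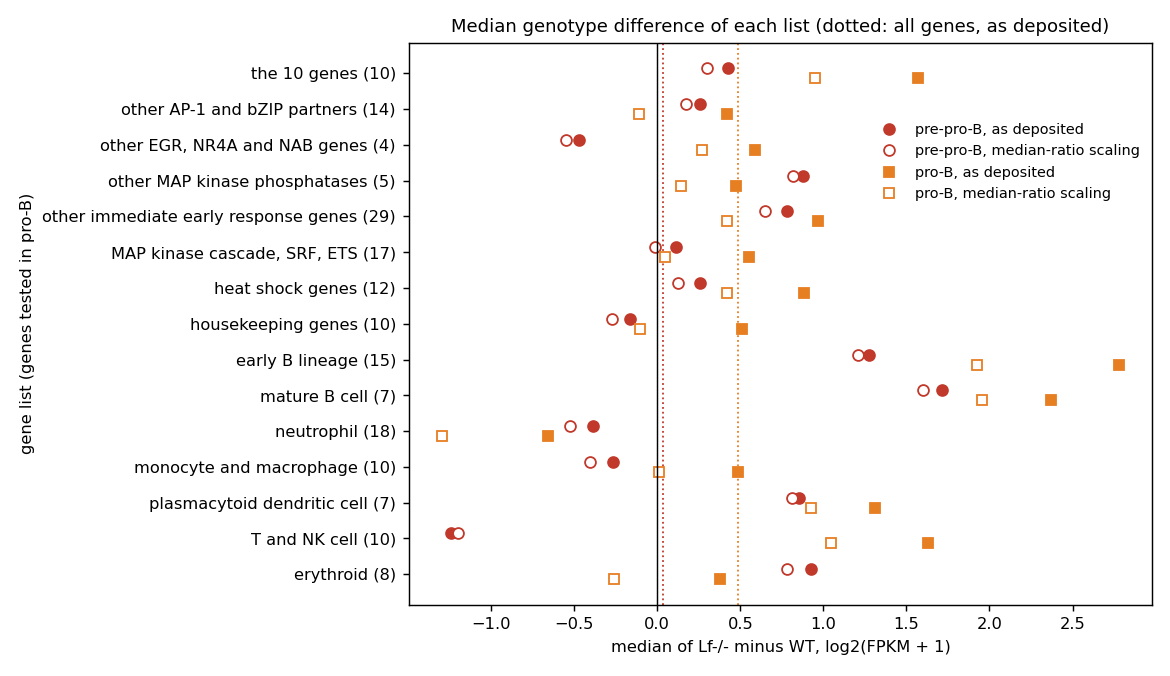
Median genotype difference (Lf-/- minus WT, log2(FPKM + 1), horizontal axis) of each gene list at the pre-pro-B stage (circles) and the pro-B stage (squares), as deposited (filled) and with median-ratio scaling (open), with the number of genes tested in pro-B cells in brackets and dotted lines at the medians of all genes as deposited. The 10 genes were at 0.43 and 1.57, other immediate early response genes at 0.78 and 0.97, and early B lineage genes at 1.28 and 2.78.

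Over the 7 libraries, the genes most like the mean profile of the 10 were sought among 4845 genes with a mean of at least 5 FPKM. Ypel3 came first, with Pearson's r of 0.988 and Spearman's rho of 1, followed by Snx2 (0.982), Pink1 (0.977), Zfp706 (0.973), Msn (0.973), Gem (0.971), Marc2 (0.970), Tspan13 (0.969), Fam204a (0.967) and Cbx1 (0.967). Ypel3 was at 38.1 and 39.3 FPKM for WT pre-pro-B, 26.8 for WT pro-B, 72.4 and 81.3 for Lf-/- pre-pro-B, and 97.4 and 86.3 for Lf-/- pro-B libraries. Gem, a small GTP-binding protein, was at 5.19 and 6.18 (pre-pro-B) and 2.42 FPKM (pro-B) in WT mice, and 18.5 and 13.4 (pre-pro-B) and 27.1 and 12.3 FPKM (pro-B) in Lf-/- mice. Both rank the WT pro-B library lowest and separate the genotypes, and without Lf-/- pre-pro-B replicate 2 r was 0.988 for Ypel3 and 0.973 for Gem. The mean profile itself has both traits, and these genes were picked for their likeness to it, so the traits are not a separate result.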

How the data were processed

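RNA from sorted pre-pro-B and pro-B cells was sequenced, and the tables used here, 1 for each of 7 libraries, hold FPKM as the authors deposited them. The submitters' processing notes name TopHat, Cufflinks, HTSeq, DESeq and GRCm38, without versions. The unit of the deposited values was read as FPKM because low values times transcript length fall on even steps in 6 of the 7 libraries. These steps gave depths of 11000000 to 16000000 fragments, and none could be read for Lf-/- pre-pro-B replicate 2. Groups and replicate numbers were taken from the labels. WT pro-B replicate 2 was not analysed here.

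Values were used as deposited and transformed to log2(FPKM + 1). Genes reaching 1 FPKM in 2 or more libraries of a fit were kept. Differences were tested in R 4.3.3 with limma 3.58.1, using a trend of variance on level, two-sided, and adjusted by Benjamini-Hochberg over all genes tested and a limit of 0.05. Pre-pro-B cells were fitted on 4 libraries, and pro-B cells, stages and the interaction on group means of 7 libraries. The fits were tested on simulated data. Promoters came from RefSeq (GRCm38.p6) and gene models from GENCODE M21, which held 52403 of the 52550 gene identifiers. In the deposited files, 26 symbols had been turned into dates and were restored by identifier. Depths, promoters and plots were made in Python 3.11.15 (numpy 2.4.6, pandas 2.3.3, matplotlib 3.10.9).

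Named genes were the 10 genes in every library, at most the 4 genes of each other list with the largest difference, the 10 genes most like the mean profile by Pearson correlation, and Ltf. The genes and lists were chosen with earlier results of these data known. Alternatives were a pseudocount of 0.1, no filter, a filter in every library, median-ratio scaling, an equal sum outside the neutrophil list, the replicate number as a block, pre-pro-B cells within the 7-library fit, and each replicate left out in turn.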

Additional observations from a re-analysis of the deposited data

Results flagged for a closer look

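The Dusp1 genotype difference was 2.56 larger in pro-B than in pre-pro-B cells on the log2(FPKM + 1) scale (SE 1.01, unadjusted p = 0.0383), which is why it is listed here. It did not pass adjustment over all genes (Benjamini-Hochberg adjusted p = 0.990 in limma), and it rests on 1 WT pro-B library, in which Dusp1 was at 61.3 FPKM. With each replicate left out in turn the value ran from 1.68 to 3.44, and it was 2.07 with median-ratio scaling. Its unadjusted call in limma was lost without WT pre-pro-B replicate 2, Lf-/- pre-pro-B replicate 1 or either Lf-/- pro-B replicate. Median-ratio scaling also ended it.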

How the results depend on the processing

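In pre-pro-B cells 97 of 110 values of the 10 genes kept their direction and side of the limit under the alternatives, 3 passed the limit that the value as reported did not, and 10 reversed. Ier2 was at -0.11 with median-ratio scaling, -0.10 with an equal sum outside the neutrophil list, -0.30 without WT replicate 1 and -0.38 without Lf-/- replicate 2 (up to 0.44 with any replicate left out). Fos was at -0.70 and Dusp1 at -0.33 without WT replicate 1, and at -0.54 and -0.70 without Lf-/- replicate 2 (up to 1.02 and 1.05), while Jun was at -0.17 without WT replicate 2 and -0.42 without Lf-/- replicate 1 (up to 0.85). In pro-B cells 120 of 120 values kept their direction, but leaving out pre-pro-B libraries cannot move these differences, and elsewhere they ran from 0.56 to 1.92 for Nr4a1 and 0.20 to 1.05 for Fosb. The interaction of Dusp1 kept its direction in 12 of 12 and Junb between stages in Lf-/- mice its direction and side of the limit in 12 of 13. For genotype with stage as a term 119 of 130 did so, where 9 lost and 2 gained the limit. The cause was not tested.

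Without a filter, which tests more low genes, genes past the adjusted limit in limma were 256 for genotype in pro-B, 240 for stage in WT, 122 for the interaction and 0 for genotype with stage as a term. That last count was 20 as reported, 9 with a pseudocount of 0.1, 63 with at least 1 FPKM in every library, 7 with median-ratio scaling and 12 with an equal sum outside the neutrophil list. The Dusp2 difference of that fit was 2.27 with a pseudocount of 0.1, 2.24 without a filter, 1.91 with median-ratio scaling and 2.06 with an equal sum, none past the limit. Shares of all genes past an unadjusted 0.05 with these scalings or without a filter are not given here. The next unadjusted counts of the 10 genes therefore cannot be set against them. Median-ratio scaling left 1 of the 10 genes past an unadjusted 0.05 in pre-pro-B, 2 in pro-B and 0 between stages in Lf-/-. It also left 3 with stage as a term (3 also with an equal sum) and 0 for the interaction, which also had 0 without a filter. It left 2 without overlap and 5 at 2-fold in pro-B (5 with an equal sum). Of 5 related lists, 3 genes passed unadjusted in pro-B with this scaling in place of 8. Without Lf-/- pre-pro-B replicate 2, an alternative chosen after seeing the data, 12 genes of these lists passed in pre-pro-B in place of 6. In pro-B 17 passed in place of 8. The share of all genes passing rose too, from 2.92% to 8.07% in pre-pro-B and from 4.33% to 21.8% in pro-B. The rise in these counts alone therefore does not set the lists apart from other genes. Genes 2-fold apart in pro-B were 1462 as reported, 2853 with a pseudocount of 0.1, 943 with at least 1 FPKM in every library and 840 with median-ratio scaling.

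With each replicate left out in turn, genes past the adjusted limit ran from 0 to 3338 in pre-pro-B (the highest without Lf-/- replicate 1, which leaves 1 Lf-/- library, assumed to vary like WT), 0 to 1 in pro-B, 0 to 3027 between stages in Lf-/- and 0 to 1 in WT, 0 to 123 with stage as a term and 0 to 561 for the interaction. Of the 10 genes, those past an unadjusted 0.05 ran from 1 to 3, 2 to 6, 0 to 2, 0 to 1, 2 to 8 and 0 to 2 in the same order, against 1.51% to 48.3%, 1.33% to 21.9%, 1.69% to 43%, 0.545% to 7.23%, 4.08% to 28.7% and 0.875% to 27.6% of all genes. The Dusp2 difference with stage as a term ran from 2.10 to 2.39, with adjusted p from 0.0191 to 0.481. Genes 2-fold apart in pro-B ran from 1371 to 2071 (5 to 9 of the 10), and those without overlap from 6 to 7 of the 10.

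Samples were not treated as paired in the main fits. Differences between replicates 2 and 1 were correlated between groups over 10793 genes. The values were 0.0393 for WT with Lf-/- pre-pro-B, 0.0532 for WT pre-pro-B with Lf-/- pro-B, and -0.0127 for the Lf-/- stages. Over the 10 genes alone they correlated at 0.742, 0.705 and 0.549. Only the last pair shares a genotype, and it rests on Lf-/- pre-pro-B replicate 2, which stood apart. These values therefore cannot show whether samples of different stages were paired. With the replicate number as a block, 65 genes passed in pre-pro-B, with Dusp2 at 2.27 (Benjamini-Hochberg adjusted p = 0.0465 in limma), 22 passed with stage as a term, and 7 of the 10 genes passed unadjusted in pro-B against 4.51% of all genes. Depth limits low genes most, and of the 10 genes Fosb, at 4.03 to 9.37 FPKM, rested on the fewest fragments for its length.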

Other observations

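Heat shock genes, another group that responds quickly to stimuli, were counted beside the 10 genes. In pre-pro-B cells 0 of 10 tested, in pro-B cells 4 of 12 and with stage as a term 3 of 12 were higher in Lf-/- cells at an unadjusted p under 0.05, against 2%, 4.18% and 6.48% of all genes, 0 were lower and 0 passed after adjustment in limma. Their medians were 0.26, 0.88 and 0.42 against 0.035, 0.48 and 0.21 for all genes. Without Lf-/- pre-pro-B replicate 2 the counts were 1 of 9, 6 of 11 and 2 of 11 against 3.98%, 21.3% and 8.82%, with medians of -0.02, 0.99 and 0.37, and 2 passed after adjustment with stage as a term. Hspa1a, an inducible chaperone, was at 2.06 and 1.79 FPKM for WT pre-pro-B, 1.16 for WT pro-B, 6.47 and 1.19 for Lf-/- pre-pro-B, and 8.76 and 11.4 for Lf-/- pro-B libraries, so it overlapped only through Lf-/- pre-pro-B replicate 2. Of 10 housekeeping genes 0 passed unadjusted in any of these comparisons, and their medians were -0.17, 0.51 and 0.014, whereas without Lf-/- pre-pro-B replicate 2 1 of 10 was higher unadjusted in pre-pro-B cells, against 3.98% of all genes, and the medians were -0.018, 0.51 and 0.21.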
